A study of Mus musculus with 12 samples.

Results

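Heat shock protein genes were examined in tumors of mice that were or were not exposed to blue light, to see whether illumination went with a heat response. The 10 genes were chosen by symbol from the counts of 32288 genes. They were Hspa1a, Hspa1b, Hspa8, Hsph1, Dnajb1, Bag3, Hsp90aa1, Hspb1, Hspd1 and Hspe1, and all 10 passed the filter of at least 10 counts in total. The data came from RNA-seq of 12 subcutaneous tumors of DBA/2 mice bought as young adults, 1 tumor per library, with 3 libraries in each of 4 groups. P815 is a mouse mastocytoma cell line. P815-IFNG cells carry the light-sensitive activator GAVPO, a light-controlled module with Ifng and Cxcl10, and a constitutive mRuby and luciferase reporter, whereas P815-M cells carry the reporter alone. Each line is 1 clone, so line and clone cannot be told apart. In the light group the tumors were illuminated with blue light for 12 h per day over 6 days, and the dark group received no blue light. Mice of both sexes were bought for the study, and the sex of each tumor's host was not used here.

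Heat shock proteins are chaperones that help other proteins fold. When cells are heated, unfolded proteins draw chaperones away from the factor HSF1, which then binds heat shock elements in front of the inducible genes. In most tissues Hspa1a and Hspa1b (HSP70), Hsph1 (HSP110), Dnajb1 (HSP40), Hspb1 (HSP27) and Bag3 rise steeply with stress. Hspa8, Hsp90aa1, Hspd1 and Hspe1 are already abundant in growing tumor cells and rise less.

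A heat shock element is built from inverted repeats of GAA. The promoters of 8 of the 10 genes were found in RefSeq sequence of GRCm38.p6, each from 250 bases before to 50 bases after the start. A pair of units, GAANNTTC or TTCNNGAA on either strand, was present in 8 of the 11 promoter entries of these genes, for 7 of the 8 genes, and in 15.1% of all 32851 entries. A run of 3 units, GAANNTTCNNGAA or TTCNNGAANNTTC, which contains the shorter motif, was present in 4 of the 11 entries (1 of 2 for Hspd1, 1 for Hspe1 and both for Hsph1) and in 0.603% of all entries. The Hspd1 entry with the run overlaps that of Hspe1, so both genes hold the same element, and the Hspd1 entry farther upstream held neither motif. The Hsph1 entries overlap too and hold the same run, which lies after their starts, at bases 37 and 16. Dnajb1 had neither within these windows. The 200 bases before the start of Hspe1 and of both HSP70 genes are shown because each stretch bears on a pair of genes discussed here, with matches to these motifs in capitals.
Hspe1, chr1:55087948-55088147, plus strand: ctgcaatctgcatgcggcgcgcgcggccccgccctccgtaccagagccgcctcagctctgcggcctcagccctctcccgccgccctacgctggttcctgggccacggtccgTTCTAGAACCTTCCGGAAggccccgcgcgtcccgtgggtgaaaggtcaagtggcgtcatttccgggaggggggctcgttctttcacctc
Hspa1a, chr17:34972157-34972356, minus strand: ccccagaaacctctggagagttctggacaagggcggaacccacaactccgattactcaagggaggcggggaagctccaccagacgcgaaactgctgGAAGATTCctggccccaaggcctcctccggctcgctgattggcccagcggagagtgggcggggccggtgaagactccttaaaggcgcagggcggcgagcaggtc
Hspa1b, chr17:34959239-34959438, minus strand: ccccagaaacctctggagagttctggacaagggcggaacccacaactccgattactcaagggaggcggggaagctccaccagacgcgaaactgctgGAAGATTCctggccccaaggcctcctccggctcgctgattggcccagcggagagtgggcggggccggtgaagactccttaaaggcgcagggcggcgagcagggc
The stretch of Hspe1 lies within that entry of Hspd1, on the other strand. In the GENCODE annotation Hspd1 starts farther upstream, at 55088243, so that the stretch falls inside the annotated gene, and Hspd1 and Hspe1 run head to head on chromosome 1 with an overlap of 112 bases. The stretches of Hspa1a and Hspa1b were identical at 199 of 200 positions, and their transcripts share runs of up to 638 bases. Of the 100-base windows of the transcripts, 47.1% for Hspa1a and 49.9% for Hspa1b also occurred in the other gene. Counts of both genes are therefore uncertain, as reads from the shared runs may not be assignable to 1 copy.

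The libraries were of 2 kinds. In 10 of them the total was between 2211234 and 2946792 counts, and the third replicates of the P815-IFNG light and dark groups held 41473500 and 42338096 counts. The kinds also differed in what they counted. The gene mt-Nd6, which lies opposite the other mitochondrial protein-coding genes, took 29.0% to 47.9% of counts on mitochondrial protein-coding genes in the 10 libraries and 3.56% and 3.85% in the deep ones, and the 10 heat shock genes together held 0.0908% to 0.148% of all counts in the 10 libraries but 0.629% and 0.692% in the deep ones. Within the 10 libraries the mt-Nd6 share was higher in light than in dark in both lines, without overlap. It was 40.5% and 43.6% in P815-IFNG light against 34.4% and 32.2% in dark. In P815-M it was 47.9%, 43.7% and 41.5% in light against 29.0%, 36.7% and 31.5% in dark. The deep light library was at 3.56% and the deep dark one at 3.85%. The part of this difference in the light fold changes was not tested. The strand setting of the counting was not tested. If the 10 libraries were counted on the strand opposite the genes, then the levels, fold changes and intervals given for all members in them are not those of their own transcripts. The deep pair is therefore given apart, and all tests rest on the 10 libraries, with 2 against 2 in P815-IFNG and 3 against 3 in P815-M. Levels are CPM, the share of a library's counts taken by a gene, with library sizes scaled by TMM. The smallest countable level, taken as 3 counts, was 1.05 to 1.39 CPM in the 10 libraries, which covers counting error only. The line labels were checked with the counts of the activator. The row for GAVPO held 1040 to 79894 counts in the 6 P815-IFNG libraries and 0 to 4 in the 6 P815-M libraries. This does not check the light labels. The row of the light-controlled module held 11 and 6 counts in P815-IFNG light and 9 and 6 in dark. In the deep pair it held 228 counts in light and 126 in dark, and in P815-M 0 to 2. Whether light induced the module was not tested. As the labels say mastocytoma, the 12 mast cell markers were checked as well. None was at 0 over the 10 libraries, but only 10 of the 12 passed the filter, and Fcer1a and Ms4a2 did not. Their summed level was 1779 to 2777 CPM in the 10 libraries, and 11446 and 8807 CPM in the deep light and dark libraries.

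Per kilobase of the longest annotated transcript, the most abundant members in the 10 libraries were Hspa8 with a mean of 122 CPM per kilobase, Hspe1 with 102, Hspd1 with 99.2 and Hsp90aa1 with 86.6. Hsph1 and Dnajb1 followed at 19.2 and 17.6, and Bag3 at 8.53. Hspb1, Hspa1b and Hspa1a were lowest at 4.27, 3.52 and 1.07. Hspa8, Hspe1, Hspd1 and Hsp90aa1 thus stood above the other members, of which Hsph1 and Dnajb1 were also well counted in the dark libraries. In the deep pair the same 4 genes led, in the order Hspa8, Hspe1, Hsp90aa1 and Hspd1, between 830 and 499 CPM per kilobase.

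**Figure D1:**
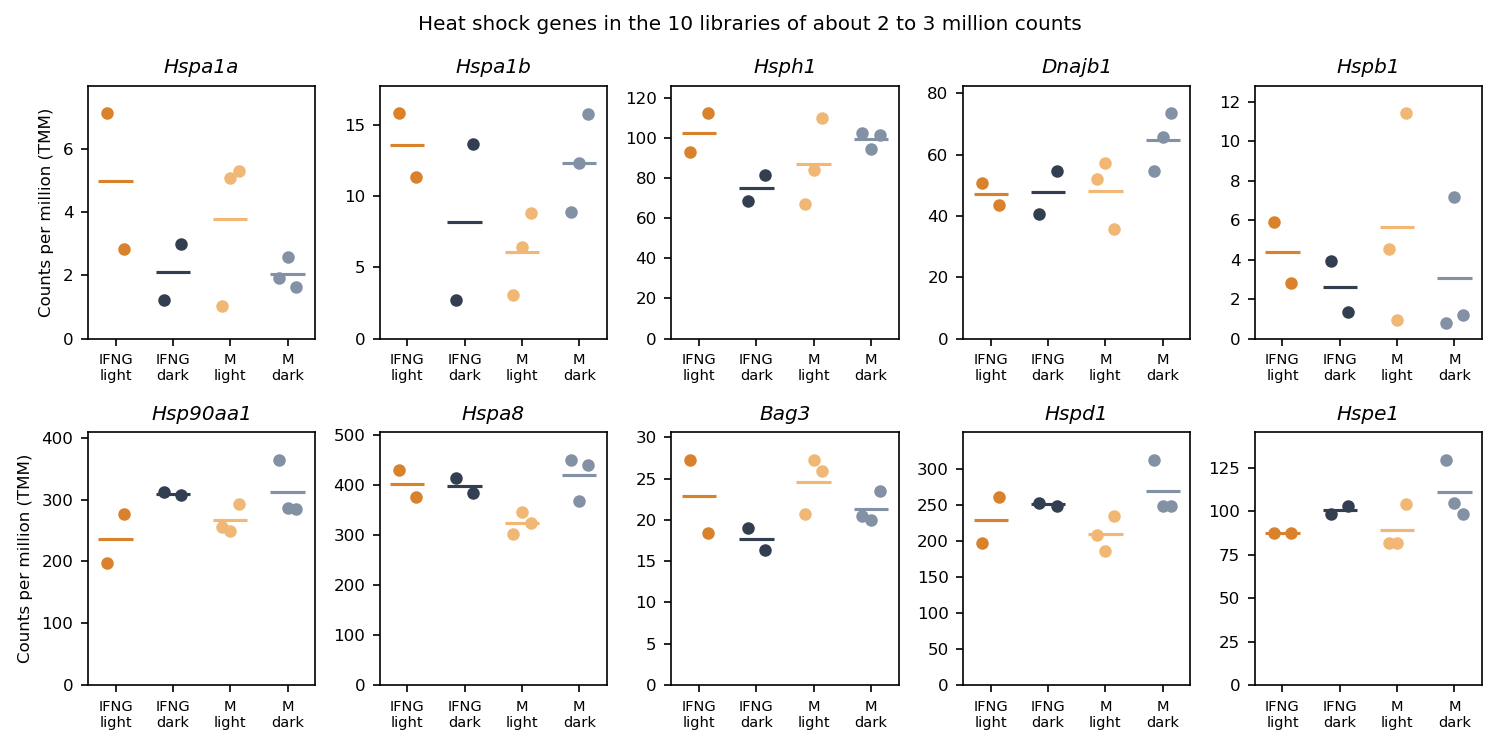
Level of each heat shock gene in the 10 libraries, in TMM-scaled CPM on an axis that starts at 0. Points are libraries, lines are group means (n = 2 for P815-IFNG, n = 3 for P815-M), and light and dark overlap within each line, except that the light libraries lie below the dark ones for Hspa8, Hspd1 and Hspa1b in P815-M and for Hsp90aa1 and Hspe1 in P815-IFNG, and above them for Hsph1 in P815-IFNG.

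In neither tumor line did any of the 10 genes pass the test between light and dark (edgeR, quasi-likelihood test, p adjusted by Benjamini-Hochberg over 16944 genes; a call needed an adjusted p no higher than 0.05 together with a 2-fold difference in either direction). Over all genes, 0.0059% were called in P815-IFNG, 0.927% in P815-M and 0.454% over both lines, so that 0 of 10 is near the background in each comparison. At an unadjusted p under 0.05, 0 of the 10 genes were higher or lower in P815-IFNG (background 5.59% higher and 5.09% lower), and in P815-M 0 were higher and 2 were lower (background 8.22% and 5.74%). DESeq2 on the same libraries also called 0 of the 10 in every light comparison. The log2 fold changes had a median of 0.20 in P815-IFNG, with 6 of 10 above 0, and of -0.27 in P815-M, with 3 of 10 above 0. The medians of all genes tested were -0.04 and 0.00. In such bulk samples, fewer cells of a type and less RNA per cell cannot be told apart.

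The genes that rise steeply with stress come first. Hspa1a was at 7.12 and 2.84 CPM in the 2 P815-IFNG light libraries and at 1.21 and 3.00 CPM in the 2 dark ones. The P815-M libraries held 1.01, 5.07 and 5.28 CPM in light and 1.93, 2.56 and 1.62 CPM in dark. Light and dark overlapped in both lines, and the values rest on 2 to 18 counts per library. The log2 fold change was 1.26 ± 0.78 (SE) in P815-IFNG (adjusted p = 0.576) and 0.91 ± 0.69 in P815-M (adjusted p = 0.596). Its 95% interval ran from -0.41 to 2.92 in P815-IFNG, so neither no change nor a severalfold rise was outside it at this depth. Without the first P815-IFNG light library the estimate was 0.44, and without the second P815-IFNG dark library 2.02.

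Hspa1b, the other HSP70 copy, was at 15.8 and 11.4 CPM in P815-IFNG light and at 2.72 and 13.6 CPM in P815-IFNG dark. In P815-M this copy was at 3.03, 6.45 and 8.80 CPM in light and at 8.86, 12.3 and 15.8 CPM in dark, so all 3 light libraries were below all 3 dark ones. The log2 fold change was 0.75 ± 0.58 in P815-IFNG (adjusted p = 0.673) and -0.99 ± 0.51 in P815-M (adjusted p = 0.401). The P815-IFNG value rested on the dark libraries, and was 0.02 without the first and 2.32 without the second of them. With the counts of both HSP70 copies summed, the log2 fold change was 0.87 in P815-IFNG and -0.52 in P815-M, and neither passed the test.

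Hsph1, a nucleotide exchange factor of HSP70, was the member with the smallest p in P815-IFNG. It was at 93.0 and 112.6 CPM in light and at 68.5 and 81.9 CPM in dark, without overlap, a log2 fold change of 0.45 ± 0.23 (adjusted p = 0.487 by edgeR). In P815-M it was at 67.2, 84.3 and 110.0 CPM in light and at 102.9, 94.8 and 101.5 CPM in dark, and the log2 fold change was -0.19 ± 0.19. Dnajb1, the J-domain partner of HSP70, did not follow it, with 50.6 and 43.5 CPM in P815-IFNG light against 40.7 and 54.6 CPM in dark. P815-M tumors had 52.1, 57.1 and 35.6 CPM in light and 54.7, 65.6 and 73.6 CPM in dark, a log2 fold change of -0.42 ± 0.21 (adjusted p = 0.377 by edgeR).

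Bag3, a co-chaperone that links HSP70 to autophagy, was at 27.3 and 18.5 CPM in P815-IFNG light against 19.0 and 16.3 CPM in dark. P815-M tumors had 20.7, 27.2 and 26.0 CPM in light and 20.4, 19.99 and 23.5 CPM in dark. Both estimates were above 0, at 0.38 ± 0.28 and 0.21 ± 0.23 on the log2 scale, and light and dark overlapped in both lines. The P815-IFNG value was 0.06 without the first light library and 0.62 without the second. Hspb1, a small heat shock protein, was counted too rarely for a comparison, at 0.770 to 11.4 CPM and with 2 or 3 counts in 3 of the 10 libraries. Its intervals spanned -1.41 to 2.87 in P815-IFNG and -0.82 to 2.76 in P815-M on the log2 scale.

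Of the 4 abundant genes, 3 had estimates below 0 in P815-IFNG and all 4 in P815-M, and none passed the test. Hsp90aa1, the inducible HSP90 isoform, was at 197 and 276 CPM in P815-IFNG light and at 312 and 307 CPM in dark. It was at 256, 249 and 293 CPM in P815-M light and at 365, 287 and 285 CPM in dark. The log2 fold change was -0.39 ± 0.21 and -0.23 ± 0.17, and over both lines -0.31 ± 0.14 (adjusted p = 0.259 by edgeR). Hspa8, the constitutive HSP70, was at 430 and 376 CPM in P815-IFNG light against 414 and 384 CPM in dark, a log2 fold change of 0.01 ± 0.19. In P815-M it was at 302, 346 and 325 CPM in light and at 451, 369 and 441 CPM in dark, without overlap, and the log2 fold change was -0.37 ± 0.15 (adjusted p = 0.281 by edgeR).

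Hspd1 and Hspe1 encode the mitochondrial chaperonin HSP60 and its cochaperonin HSP10 and lie head to head around the stretch printed above. Hspd1 was at 196 and 260 CPM in P815-IFNG light and at 253 and 248 CPM in dark. In P815-M it was at 208, 186 and 234 CPM in light and at 312, 248 and 248 CPM in dark, without overlap, with a log2 fold change of -0.36 ± 0.17 (adjusted p = 0.354 by edgeR). Hspe1 was at 87.8 and 87.5 CPM in P815-IFNG light and at 98.4 and 102.9 CPM in dark. In P815-M it was at 81.9, 82.005 and 104 CPM in light and at 130, 105 and 98.7 CPM in dark, which overlap. The genes of this pair went together across the 10 libraries (Pearson r = 0.83 of log2 CPM), and Hsp90aa1 went with both (r = 0.86 with Hspd1 and 0.78 with Hspe1). These are descriptions over 10 libraries that share the groups and the depth, and Hspa1a went with Hspa1b only at r = 0.52.

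In P815-IFNG, light and dark libraries did not overlap for 1 member that was higher in light (background 19.2%) and 2 that were lower (22.9%). In P815-M these counts were 0 (10.7%) and 3 (9.47%), and over both lines together 0 (1.25%) and 0 (1.62%). Exact two-sided permutations of the light labels within each line, of which there are 120, gave p = 0.0333 for Hspe1, 0.05 for Hsp90aa1, 0.0833 for Hspd1 and 0.1 for Hspa8 and for Bag3, where 0.0167 is the smallest p possible. For these 5 genes the log2 fold change over both lines was between -0.31 and -0.18, apart from Bag3 at 0.29, and no value is adjusted for the 10 genes tested. Over both lines, 0 members were higher and 1 was lower at an unadjusted p under 0.05 (9.22% and 7.72% of all genes). Within 1 line the smallest possible permutation p is 0.333 for P815-IFNG and 0.1 for P815-M.

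**Figure D2:**
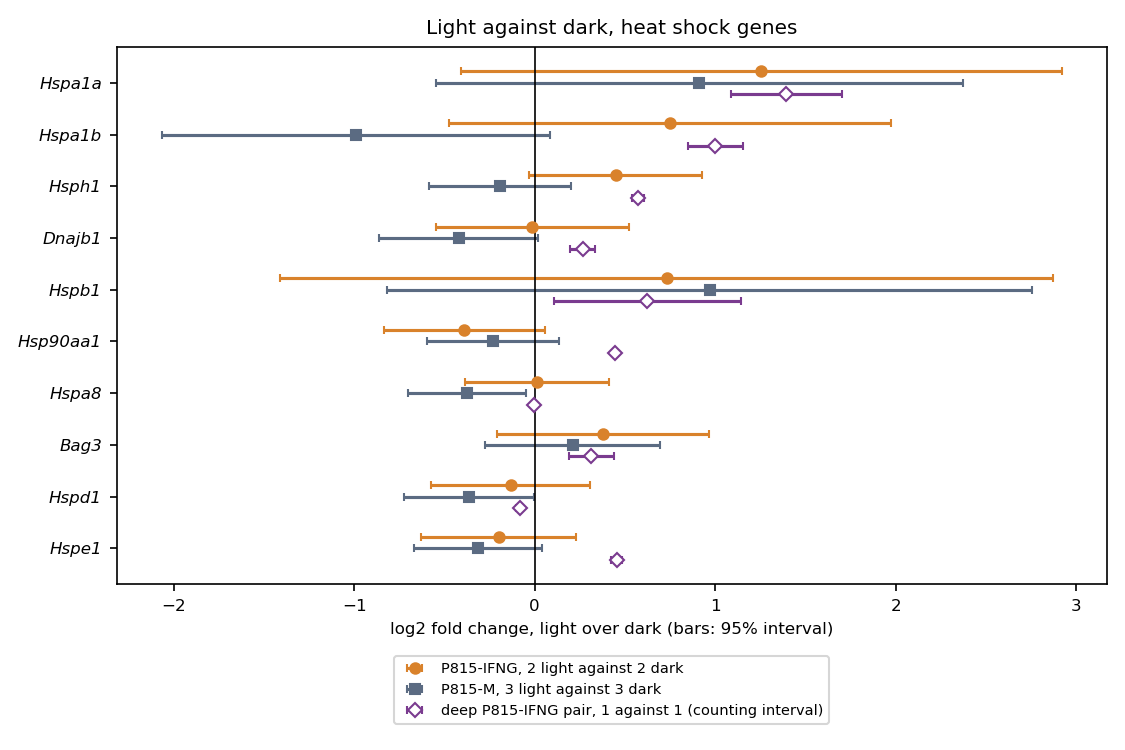
Log2 fold change of light over dark for each heat shock gene, with 95% intervals from the edgeR fit for P815-IFNG (circles, 2 against 2) and P815-M (squares, 3 against 3), and with counting intervals only for the deep P815-IFNG pair (diamonds, 1 against 1). In P815-IFNG all 10 replicate-based intervals include 0, and in P815-M those of Hspa8 and Hspd1 lie just below 0.

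The intervals of the 7 members other than Hspa1a, Hspa1b and Hspb1 were narrower. In P815-IFNG the upper end of the 95% interval on the log2 scale was highest for Bag3 at 0.97 and Hsph1 at 0.93, and was 0.52 for Dnajb1, 0.41 for Hspa8, 0.31 for Hspd1, 0.23 for Hspe1 and 0.06 for Hsp90aa1. In P815-M the upper end was 0.70 for Bag3, 0.20 for Hsph1 and 0.02 for Dnajb1. A doubling in light (1 on the log2 scale) lay outside the intervals of these 7 genes, but in P815-IFNG 1 library decided this for Bag3 and Hsph1. The upper end for Bag3 was 1.29 without the second light library, 1.28 without the first dark library and 1.02 without the second, and that for Hsph1 was 1.16 without the first light library and 1.21 without the second dark one. For the other 5 genes the upper end stayed under 1 with any 1 library left out, at most 0.87 in P815-IFNG and 0.29 in P815-M. These bounds hold for the counts as deposited and carry the open question of strand given above.

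The effects of light in the 2 lines were then compared with each other. Hspa1b and Hsph1 differed most, by 1.74 ± 0.77 and 0.64 ± 0.29 on the log2 scale, with the larger light effect in P815-IFNG (adjusted p = 0.642 for both by edgeR). Thus 2 of 10 members had an unadjusted p under 0.05 in this direction against 2.46% of all genes, and 0 of 10 were called against 0.0118%. The difference for Hspa1a was 0.34 ± 1.05. Between the lines within 1 light condition, 0 of the 10 genes were called in light (background 0.23%) or in dark (2.19%). In light, Hspa1b was 1.14 ± 0.55 higher in P815-IFNG on the log2 scale (adjusted p = 0.494 by edgeR), without overlap between the libraries.

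Summed levels of genes of other cell types were compared between light and dark, and their separation depended on the line. The summed level of 16 skeletal muscle genes was 155 and 165 CPM in P815-IFNG light against 225 to 1015 CPM in dark, and that of 10 endothelial genes was 146 and 161 CPM against 282 and 288 CPM. The sum of 10 macrophage genes was 1794 to 1935 CPM in P815-M light and 1008 to 1265 CPM in dark, and in P815-IFNG 1589 and 2202 CPM in light against 2350 and 2739 CPM in dark. Fibroblast genes (10) summed to 4745 and 5985 CPM in P815-IFNG light and to 7026 and 13632 CPM in dark. In P815-M light and dark overlapped for muscle (112 to 627 against 123 to 883 CPM) and endothelial genes (86.8 to 150 against 89.9 to 190 CPM). Fibroblast genes overlapped there too (4698 to 5791 against 4252 to 5667 CPM). In the deep pair the macrophage sum was higher in light, at 999 against 839 CPM, and the muscle, endothelial and fibroblast sums were lower. None of these markers was at 0 over the 10 libraries. The called markers in P815-M light were C1qa (1.09) and Dpt (1.34), both higher on the log2 scale. Each of these calls was lost when 1 library was left out, for Dpt the first or second light or the first or second dark library (adjusted p = 0.0685 to 0.0922) and for C1qa any light library or either of dark libraries 2 and 3 (adjusted p = 0.0666 to 0.142 by edgeR). T cell genes (10) summed to 9.73 to 51.0 CPM, and light and dark overlapped in both lines. Of 8 keratinocyte markers, Krt5, Krt14, Krt1 and Trp63 were at 0, and the rest summed to 2.76 to 10.1 CPM. Their part in the heat shock gene values was not tested.

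In the deep P815-IFNG pair the light library had the higher level for 8 of the 10 genes, against 50.2% of all genes. Hspa1a was at 8.08 CPM in the light library (309 counts) and at 3.08 CPM in the dark one (126 counts), a log2 ratio of 1.39 with a counting interval of 1.09 to 1.70. Hspa1b was at 25.8 and 12.9 CPM, a log2 ratio of 1.00 (0.85 to 1.16). Hsph1 was at 406 and 273 CPM, Hsp90aa1 at 2043 and 1503 CPM and Hspe1 at 611 and 446 CPM. Dnajb1, Bag3 and Hspb1 were also higher, with log2 ratios of 0.27, 0.31 and 0.62. In contrast, Hspa8 was at 2617 and 2624 CPM and Hspd1 at 1172 and 1243 CPM.

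The median log2 ratio of the 10 genes in this pair was 0.45, against 0.00 for all 17289 genes. Of the 10, 2 were at least doubled in light (9.99% of all genes) and 0 had a log2 ratio of -1 or lower (4.97%). Of all genes, 50.2% were above 0. Such shares depend on the level. Among the 8008 genes of at least 20 CPM in this pair, 76 were at least doubled, 14 were at -1 or lower and 43.2% were above 0. The 2 doubled members, Hspa1a and Hspa1b, had mean levels of 5.55 and 19.3 CPM in the pair, under that level. This pair has no replicate, and its intervals cover counting error only, so the difference between the conditions was not tested. Other genes moved in the same pair, as 13 of 14 immediate early genes, which respond within minutes to many stimuli, were higher in light (median log2 ratio 0.68) and 14 of 16 skeletal muscle genes were lower by 1 or more. Their part in the heat shock values was not tested.

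**Figure D3:**
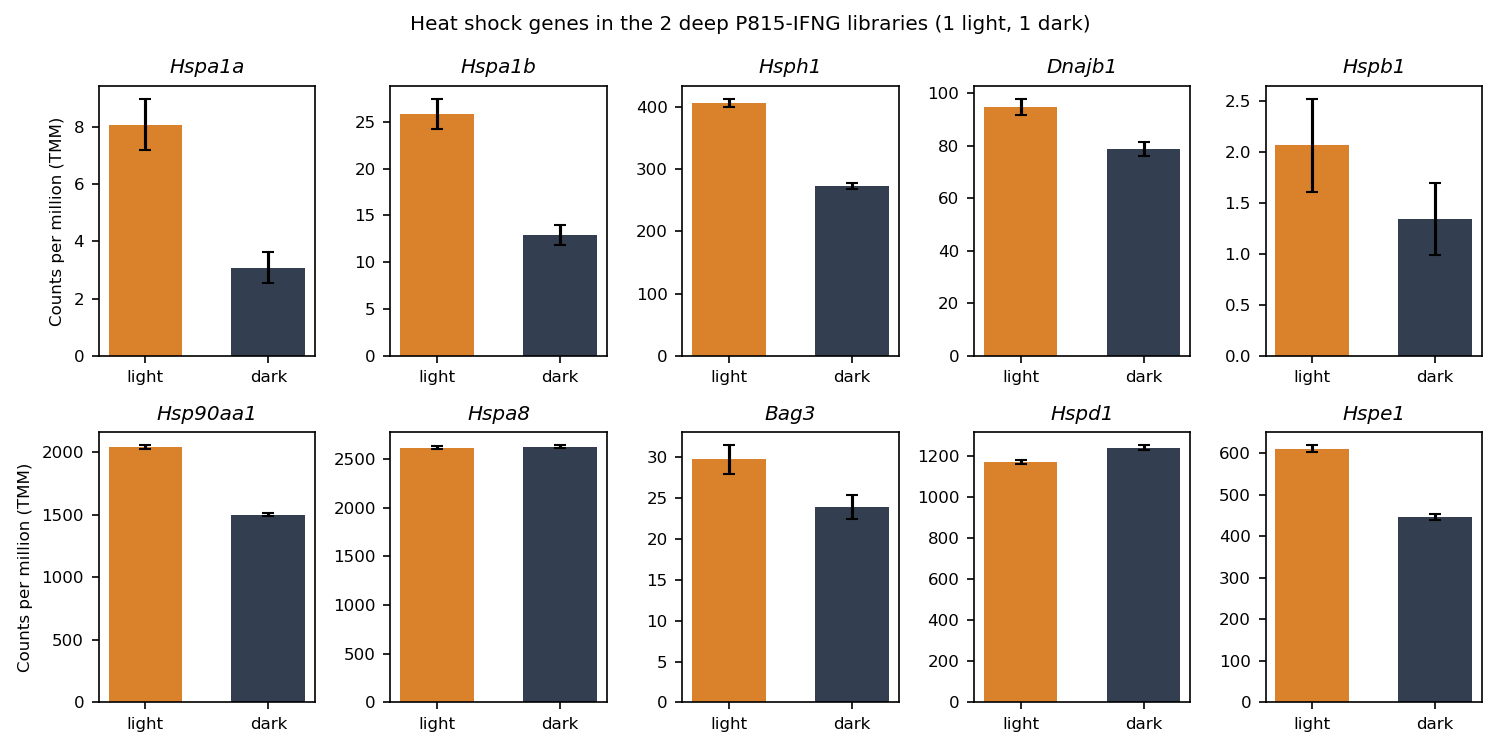
Level of each heat shock gene in the deep light library and the deep dark library of P815-IFNG, in TMM-scaled CPM on axes that start at 0. Error bars are approximate 95% counting intervals, n = 1 per bar, and the light bar is higher in 8 of 10 panels, by the largest ratio for Hspa1a (8.08 against 3.08 CPM).

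Hspa1a, Hspa1b, Hsph1, Bag3 and Hspb1 had estimates above 0 in both kinds of P815-IFNG library, and Hspd1 had estimates below 0 in both. Dnajb1 (-0.01 and 0.27) and Hspa8 (0.01 and -0.0037) differed in sign near 0, and Hsp90aa1 and Hspe1 went opposite ways, with log2 values of -0.39 and -0.20 in the replicated libraries and 0.44 and 0.45 in the deep pair. With all 12 libraries in 1 fit Hsp90aa1 and Hspe1 were at 0.20 and 0.24, and 0 of the 10 were called. The mean levels of the members also differed between the kinds of library. Against the deep pair, the log2 ratio of the mean level in the 10 libraries was -2.76 for Hspa8, -2.64 for Hsp90aa1, -2.42 for Hspe1 and -2.33 for Hspd1, but -0.29 for Bag3 and 1.22 for Hspb1. The median of the 10 genes was -1.43, and that of all 15841 genes with at least 10 counts in both kinds of library was -0.36. For the 4740 of these at 50 CPM or more in the deep libraries the median was -1.15, so abundant genes in general were lower.

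Counts at Hspa1a fell on both strands. The gene Gm20481 (ENSMUSG00000092609) is annotated in GRCm38 on the plus strand of chromosome 17, with exons at 34969912 to 34970288 and 34971950 to 34972136, and all 564 exon bases lie within the single exon of Hspa1a on the minus strand (34969190 to 34972156). It was singled out after its values were seen. In the 10 libraries Gm20481 held 41 to 245 counts, between 10.2 and 34.0 for each count of Hspa1a. In the deep libraries it held 88 counts in light and 34 in dark, 0.285 and 0.270 for each count of Hspa1a. Thus the 10 libraries held most counts of the locus on the strand opposite Hspa1a, and the deep libraries on the strand of Hspa1a. The libraries were made with a kit that keeps the strand, and the strand setting of the counting in each library was not tested, as reads were not used here.

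**Figure D4:**
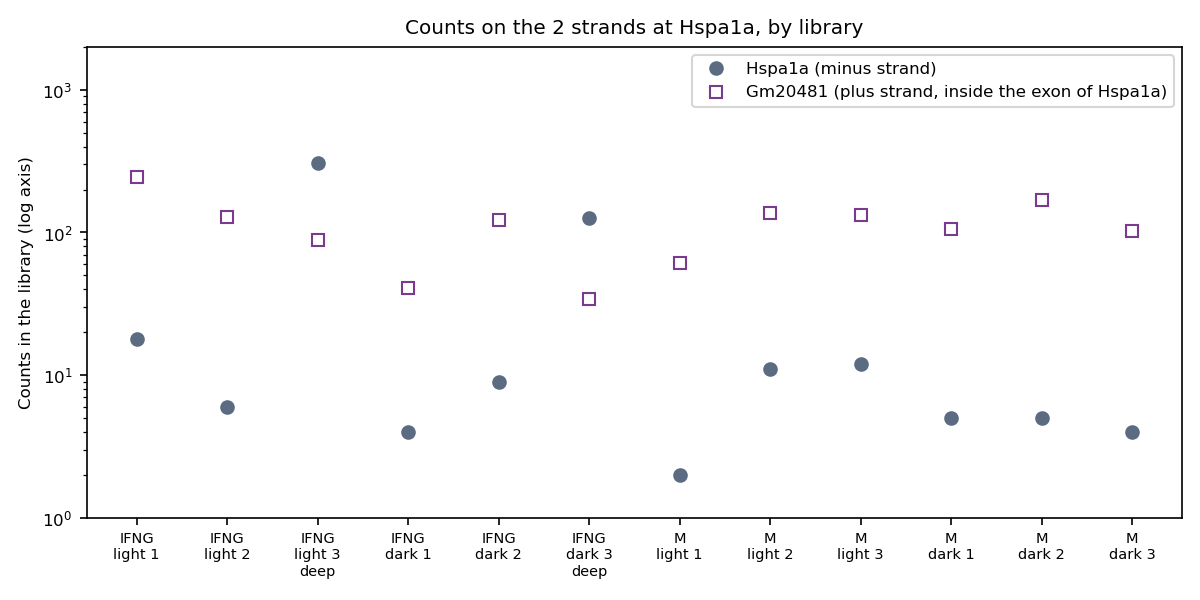
Counts of Hspa1a (filled circles, minus strand) and of Gm20481 (open squares, plus strand, inside the exon of Hspa1a) in each of the 12 libraries, on a log axis. Squares lie above circles in the 10 libraries and below them in the 2 deep ones.

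Gm20481 was at 96.9 and 61.0 CPM in P815-IFNG light and at 12.4 and 40.6 CPM in dark, without overlap. In P815-M it was at 30.8, 62.7 and 58.1 CPM in light and at 40.8, 87.1 and 41.2 CPM in dark, which overlap. The log2 fold change was 1.59 ± 0.47 in P815-IFNG (adjusted p = 0.326 by edgeR) and -0.14 ± 0.38 in P815-M (adjusted p = 0.910 by edgeR). The difference between the lines was 1.73 ± 0.61 (adjusted p = 0.567 by edgeR). In the deep pair the log2 ratio was 1.47, with a counting interval of 0.88 to 2.08, beside 1.39 for Hspa1a. Across the 10 libraries log2 CPM of Gm20481 went with that of Hspa1a at r = 0.74 and of Hspa1b at r = 0.73.

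The wider chaperone network was taken from fixed lists. Of 37 cytosolic chaperones and cochaperones, 0 were called between light and dark in either line, with a median log2 fold change of -0.15 in P815-IFNG (15 above 0) and -0.10 in P815-M (14 above 0). The 7 small heat shock genes tested had medians of -0.47 and 0.18. The 8 subunits of TRiC, the cytosolic chaperonin that folds actin and tubulin, were below 0 in 7 of 8 cases in P815-IFNG and in 8 of 8 in P815-M, with medians of -0.21 and -0.35. In P815-M 5 of these 8 had an unadjusted p under 0.05, against 5.74% of all genes, and none was called. Of 9 mitochondrial chaperones and proteases 6 and 7 were below 0, and of 21 genes of the endoplasmic reticulum stress response 18 and 16 were below 0, with medians of -0.24 and -0.21. Of all genes tested, 46.9% were above 0 in P815-IFNG and 50.2% in P815-M. These shares cover genes of any level, and shares among genes as abundant as those of the lists were not taken. No list gene of these 5 groups was called in a light comparison.

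Among the genes of these lists whose light and dark libraries did not overlap, Lonp1, a protease of the mitochondrial matrix, had the smallest p in P815-M, at -0.62 ± 0.16 (adjusted p = 0.0683 by edgeR), and over both lines, at -0.51 ± 0.12 (adjusted p = 0.0604 by edgeR). Its libraries did not overlap in either line, with -0.40 ± 0.19 in P815-IFNG. In P815-M the next were Cct8, a TRiC subunit, at -0.48 ± 0.16 and Dnajb6, an HSP40, at -0.56 ± 0.19. Over both lines the next without overlap were Hspa9, the mitochondrial HSP70, at -0.33 ± 0.13 and Dnajb6 at -0.37 ± 0.15. In P815-IFNG the others were Hspb7, a small heat shock protein of heart and muscle, at -7.14 ± 2.72, and Sdf2l1 of the endoplasmic reticulum at -0.69 ± 0.30. Hspb7 was rarely counted, with 18 counts in the deep light library and 26 in the deep dark one (0.47 and 0.64 CPM), a log2 ratio of -0.43. In the replicated P815-IFNG libraries the value of Hspb7 was -2.84 without the first dark library and -8.04 without the second. Skeletal muscle genes were at lower summed levels in the same light libraries, as given above, and their part in the value of Hspb7 was not tested. Between the lines, Fkbp5, an HSP90 cochaperone, was higher in P815-IFNG light (1.11 ± 0.21, adjusted p = 0.0337), and Hspa12a, a distant HSP70 relative, was higher in P815-IFNG dark (2.74 ± 0.58, adjusted p = 0.0230 by edgeR). Fkbp5 lost its call without any 1 of the 5 light libraries (0.92 to 1.29, adjusted p = 0.0678 to 0.197), and Hspa12a without any 1 of the 5 dark libraries (2.46 to 2.95, adjusted p = 0.0513 to 0.137 by edgeR).

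**Figure D5:**
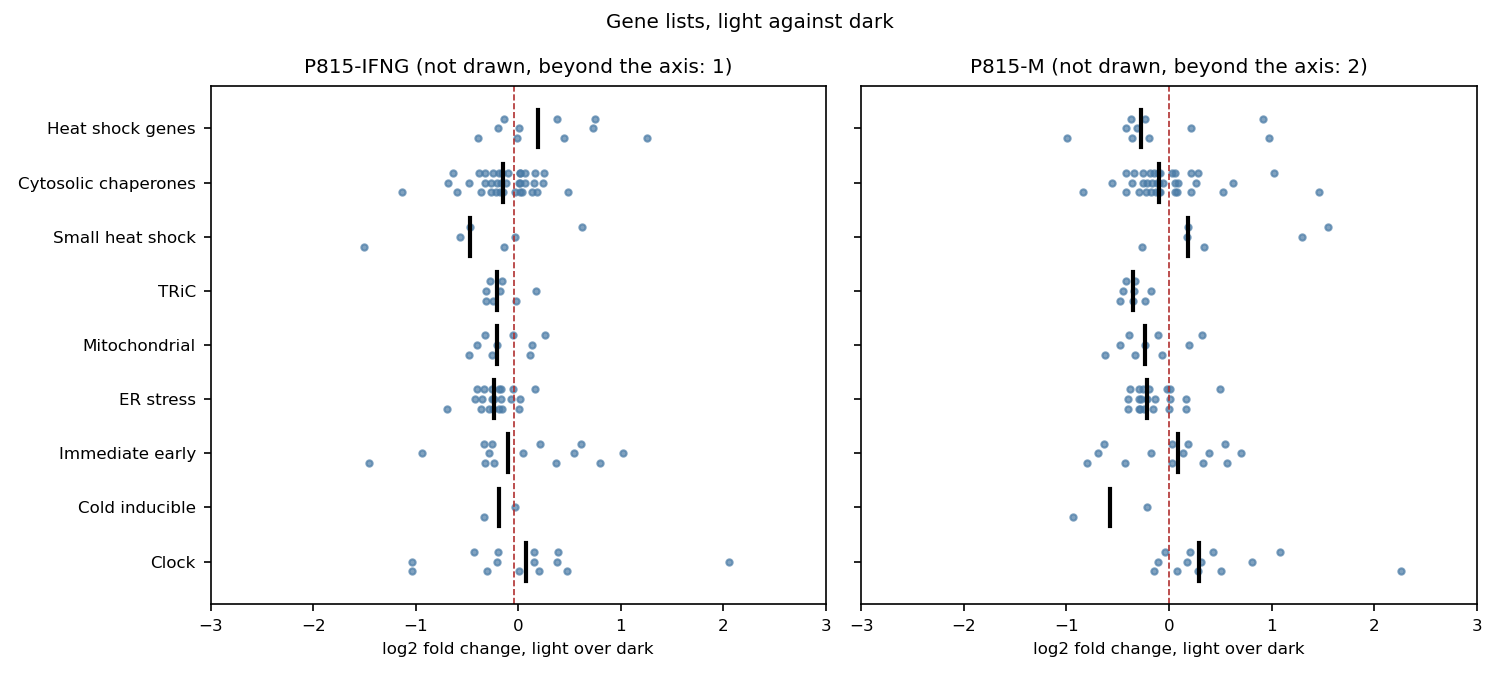
Log2 fold change of light over dark for the genes of 9 lists in P815-IFNG (left) and P815-M (right). Points are genes, black lines are list medians, the dashed line is the median of all genes tested, genes beyond 3 in size are not drawn (1 in P815-IFNG, 2 in P815-M), and the 8 TRiC subunits in P815-M lie below 0.

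Genes that respond to cooling were looked at beside those that respond to heat. Rbm3 and Cirbp encode RNA-binding proteins that are induced by mild cooling. Rbm3 was at 132, 161 and 155 CPM in the P815-M light libraries and at 267, 282 and 312 CPM in the dark ones, without overlap. The log2 fold change in P815-M was -0.94 ± 0.15 (adjusted p = 0.0103 by edgeR), just under the fold required for a call, and 1.19% of all genes had an adjusted p of at most 0.05 at any fold. It was singled out after its values were seen. In P815-IFNG Rbm3 was at 275 and 246 CPM in light and at 279 and 254 CPM in dark, a log2 fold change of -0.03 ± 0.19, and the difference between the lines was 0.91 ± 0.24 (adjusted p = 0.405 by edgeR). Cirbp did not pass the test in either line, at -0.33 ± 0.28 and -0.21 ± 0.25. In the deep pair both genes were higher in light, at 448 and 352 CPM for Rbm3 and at 32.3 and 25.1 CPM for Cirbp. Among the 21 alternative fits, that with no minimum fold was the reported fit itself. Those without a P815-IFNG library kept all P815-M libraries, so they bear little on the P815-M value. The adjusted p of Rbm3 in P815-M stayed at or under 0.05 in 19 of these 21 fits. The exceptions were the fit without the first P815-M light library (adjusted p = 0.0841 by edgeR) and the fit of all 12 libraries with no term for their kind (adjusted p = 1 by edgeR).

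The immediate early and clock lists gave no call between light and dark. The 14 immediate early genes had medians of -0.10 in P815-IFNG and 0.09 in P815-M. The 14 clock genes had medians of 0.08 and 0.30. Between the lines, Per1 was called higher in P815-IFNG in light (1.79) and in dark (1.95), and in dark also Nr1d2 (2.28) and Tef (1.04), all on the log2 scale. Nr1d2 lost its call without the second P815-IFNG dark library (adjusted p = 0.0855), and Tef without either P815-IFNG dark library or 1 of P815-M dark libraries 2 and 3 (adjusted p = 0.0762 to 0.149 by edgeR). The other list genes called higher in P815-IFNG dark were Myh4 of skeletal muscle (6.39), the fibroblast genes Lum (1.67), Dpt (1.56) and Dcn (1.30), and the macrophage genes C1qb (1.60), C1qa (1.59) and C1qc (1.28). Lum lost its call without any 1 of the 5 dark libraries or the second P815-M light library (adjusted p = 0.0544 to 0.146), Dpt without the second P815-IFNG dark library (adjusted p = 0.0874) and C1qc without the first (adjusted p = 0.0697 by edgeR). The genes whose level went most closely with the mean centred level of the 10 members, among 7299 genes with a mean of at least 20 CPM, were Ktn1 (r = 0.86), Nudt1 (0.85), Itgb4 (0.84), Clk3 (0.84) and Nit2 (0.82) across the 10 libraries. They are the top of a ranking of many genes over few libraries, and whether such r arise without any link was not tested.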

How the data were processed

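Tumor RNA was sequenced after TruSeq stranded mRNA preparation. The authors trimmed reads with fastp, aligned them with STAR 2.7.9a to mm10 with the knock-in sequences added, and counted them per gene with HTSeq 0.13.5 (tools and versions partly from the submitters' processing notes). The annotation release was not given in the sources used here. The deposited values are raw counts; the removal of mitochondrial genes and the batch adjustment of the study's methods are not in them, and the DESeq2 1.32.0 step of the study was not repeated.

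Here 13 rows of mitochondrial genes were left out, and the test covered genes whose counts summed to 10 or more over the 10 libraries, run with R 4.3.3 and edgeR 4.0.16 (TMM, 1 mean per group, quasi-likelihood test, Benjamini-Hochberg). A call needed an adjusted p no higher than 0.05 and a log2 fold change of 1 or more in size. Libraries above 10000000 counts were kept apart. Alternatives used DESeq2 1.42.0 and ComBat-seq of sva 3.50.0, among others. Single genes over both lines were tested with two-sided exact permutations. Levels in CPM for the deep pair were scaled by TMM within that pair. Correlations used log2 CPM with a prior count of 2. Coordinates are from GENCODE M21 on GRCm38, the assembly also called mm10.

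Named genes were the 10 members, list genes called in a comparison, up to 3 chaperone genes per light comparison with the smallest p and no overlap, and the 5 most alike genes. Members and lists were chosen with earlier results of these data known. Replicates of a group differed by more than sampling noise. They are separate mice by the labels. Code was tested on simulated data. Intervals and floors cover counting error only where so stated.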

Additional observations from a re-analysis of the deposited data

Results flagged for a closer look

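Both HSP70 genes were at least doubled in light in the deep P815-IFNG pair, which lies outside the replicated comparison. The same held for 9.99% of all genes, and for 76 of the 8008 genes of at least 20 CPM. Hspa1a and Hspa1b had mean levels of 5.55 and 19.3 CPM in the pair, so the second count is not for genes of their level. The log2 ratio of the deep light over the deep dark library was 1.39 for Hspa1a (309 against 126 counts) and 1.00 for Hspa1b (988 against 528 counts). These values come from 1 library per condition and were not tested against the spread between mice. In the replicated libraries of the same line the log2 fold changes were 1.26 and 0.75, and neither passed the test.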

How the results depend on the processing

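No heat shock gene was called in any comparison under any alternative, including each library left out in turn. Counts of all genes called did depend on the setting. They are given in the order light effect in P815-IFNG, in P815-M, over both lines and as the difference between the lines, then the line effect in light and in dark, where the values reported were 1, 157, 77, 2, 39 and 371. With all 12 libraries they were 0, 0, 0, 0, 3 and 2, and the members' median over both lines was -0.020. ComBat-seq gave 180, 261, 303, 49, 272 and 579, and no low-count filter 341, 476, 382, 297, 257 and 867. With the kind of library as a term, P815-IFNG light, both lines and the line effect in light were at 2, 149 and 82. DESeq2 gave 8 for P815-IFNG light, 21 for the difference and 76 for the line effect in light, and filterByExpr gave 0 for P815-IFNG light and 0 for the difference. Fitting only the libraries compared gave 0 in P815-IFNG, 244 in P815-M and 152 for the line effect in dark, and no minimum fold gave 150 over both lines. With the replicate number as a block, the first 4 were 5, 252, 133 and 14. Same-numbered libraries did not deviate together (r from -0.239 to 0.161), so the numbers were not taken to pair them. With 1 library left out the counts were 0 to 9, 18 to 229, 17 to 150, 0 to 3, 17 to 46 and 145 to 415, and the members' medians 0.054 to 0.21, -0.34 to -0.18 and -0.19 to 0.051. The cause was not tested.

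Signs changed for these values. In P815-IFNG, with all 12 libraries, Dnajb1 was at 0.10, Hsp90aa1 at 0.20, Hspa8 at -0.030, Hspe1 at 0.24 and Rbm3 at 0.10. With the kind of library as a term, Dnajb1 was at 0.082, Hspa8 at -0.00262, Hspe1 at 0.025 and Rbm3 at 0.086. With ComBat-seq, Dnajb1 was at 0.050 and Rbm3 at 0.039. Dnajb1 was at 0.0147 by DESeq2, 0.0152 with RLE size factors and 0.000524 with the block. Over both lines Hspa1b was at 0.18 summed with Hspa1a. In P815-M, Gm20481 in place of Hspa1a, chosen after seeing the data, gave -0.14. With 1 library left out, P815-IFNG values ran from -0.087 to 0.11 for Hspa8, -0.35 to 0.057 for Hspd1, -0.19 to 0.22 for Dnajb1 and -0.12 to 0.055 for Rbm3, Hspa1b over both lines ran from -0.49 to 0.66, and Hspb1 in P815-M from -0.10 to 2.45. Hspa1a held 2 to 18 counts per library, and Hspb1 2 to 26.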
